A study of Rattus norvegicus with 10 samples.

Results

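The Wnt ligands, their frizzled receptors and the secreted frizzled-related proteins were measured as 32 of the 18166 named genes in testes of Zucker rats. They comprised every gene whose only symbol in the array's annotation was Wnt, Fzd or Sfrp followed by a number and at most 1 letter, which gave 19 Wnt, 9 Fzd and 4 Sfrp genes, each with 1 probe set. The series holds 10 Affymetrix arrays of whole testes from sexually mature rats aged 14 weeks. Normally developed testes of obese rats gave 4 arrays, under-developed testes of obese rats gave 4, and normally developed testes of lean rats gave 2. All samples, the lean ones included, carry the label Zucker (fa/fa), the obesity model in which the leptin receptor is mutated, so the genotype of the lean rats was not settled. The treatment text of the lean samples also speaks of obese animals, so the titles, the descriptions and the phenotype label alone set lean apart from obese. The titles call the arrays of a group biological replicates but do not state that each testis is from a different animal, and p-values cover the spread between these samples.

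Wnt proteins are lipid-modified signals that act over short distances. They bind the cysteine-rich domain of frizzled receptors together with coreceptors, and in the canonical branch this stops the breakdown of beta-catenin, which then turns on genes with TCF and LEF factors, while other branches steer cell polarity and movement. Sfrp proteins carry a domain like that of the frizzleds, can bind Wnts outside the cell and are mostly known as inhibitors. In the testis the balance of Wnt signalling is known to matter for Sertoli cells and for spermatogonia, and Wnt4 is best known for its part in forming the ovary.

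The under-developed arrays were not alike. Markers of spermatids, 10 of 10 measured, had a summed level (log2 of the summed linear values) of 15.68 to 15.71 in normal obese testes and 15.68 to 15.71 in lean testes, against 13.48, 15.12, 12.26 and 15.65 in under-developed replicates 1 to 4. The Sertoli markers, 16 of 18 measured, summed to 13.63 to 13.76 in normal obese testes and to 15.35, 14.99, 15.36 and 13.70 in replicates 1 to 4. Both lists had values on all arrays, which does not by itself show that the cells were present. Replicate 4 was close to the normal testes. Over all 18166 genes limma called 0 at an adjusted p under 0.05 between under-developed and normal obese testes with all arrays, and 10171 without replicate 4. Replicate 4 was known to stand apart from earlier results of these data, so values without it are descriptions of replicates 1 to 3 rather than independent evidence. In whole tissue fewer cells of a type and less RNA per cell cannot be told apart.

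With all arrays, 0 of the 32 genes passed between under-developed and normal testes of obese rats (limma, adjusted p under 0.05), as did 0.0% of all genes, and the smallest adjusted p of a member was 0.0702. An unadjusted p under 0.05 was found for 11 members, all of them higher, where 24.4% of all genes were higher and 22.3% lower. The median fitted difference was 0.21 log2 over the 32 members and 0.06 over all genes. Without under-developed replicate 4, 12 members passed with the values as deposited (37.5%, against 56.0% of all genes). Of the members 10 rose (31.2%) and 2 fell (6.25%), where 29.6% of all genes rose and 26.4% fell. With arrays centred on the Sertoli markers, also without replicate 4, 1 rose and 28 fell, where 5.73% of all genes rose and 85.7% fell. As deposited, the share that rose was near that of all genes and the share that fell was below it. Whether these shares differ was not tested. Replicates 1 to 3 all lay above the 6 normal arrays for 9 members (28.7% of all genes) and below them for 2 (26.7%). Those that rose were Wnt4, Wnt11, Wnt6, Wnt5a, Wnt5b, Wnt2b, Fzd1, Fzd2, Fzd8 and Sfrp1, and those that fell were Wnt9b and Wnt8b. The plot of levels shows these 12 genes on each array.

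**Figure D1:**
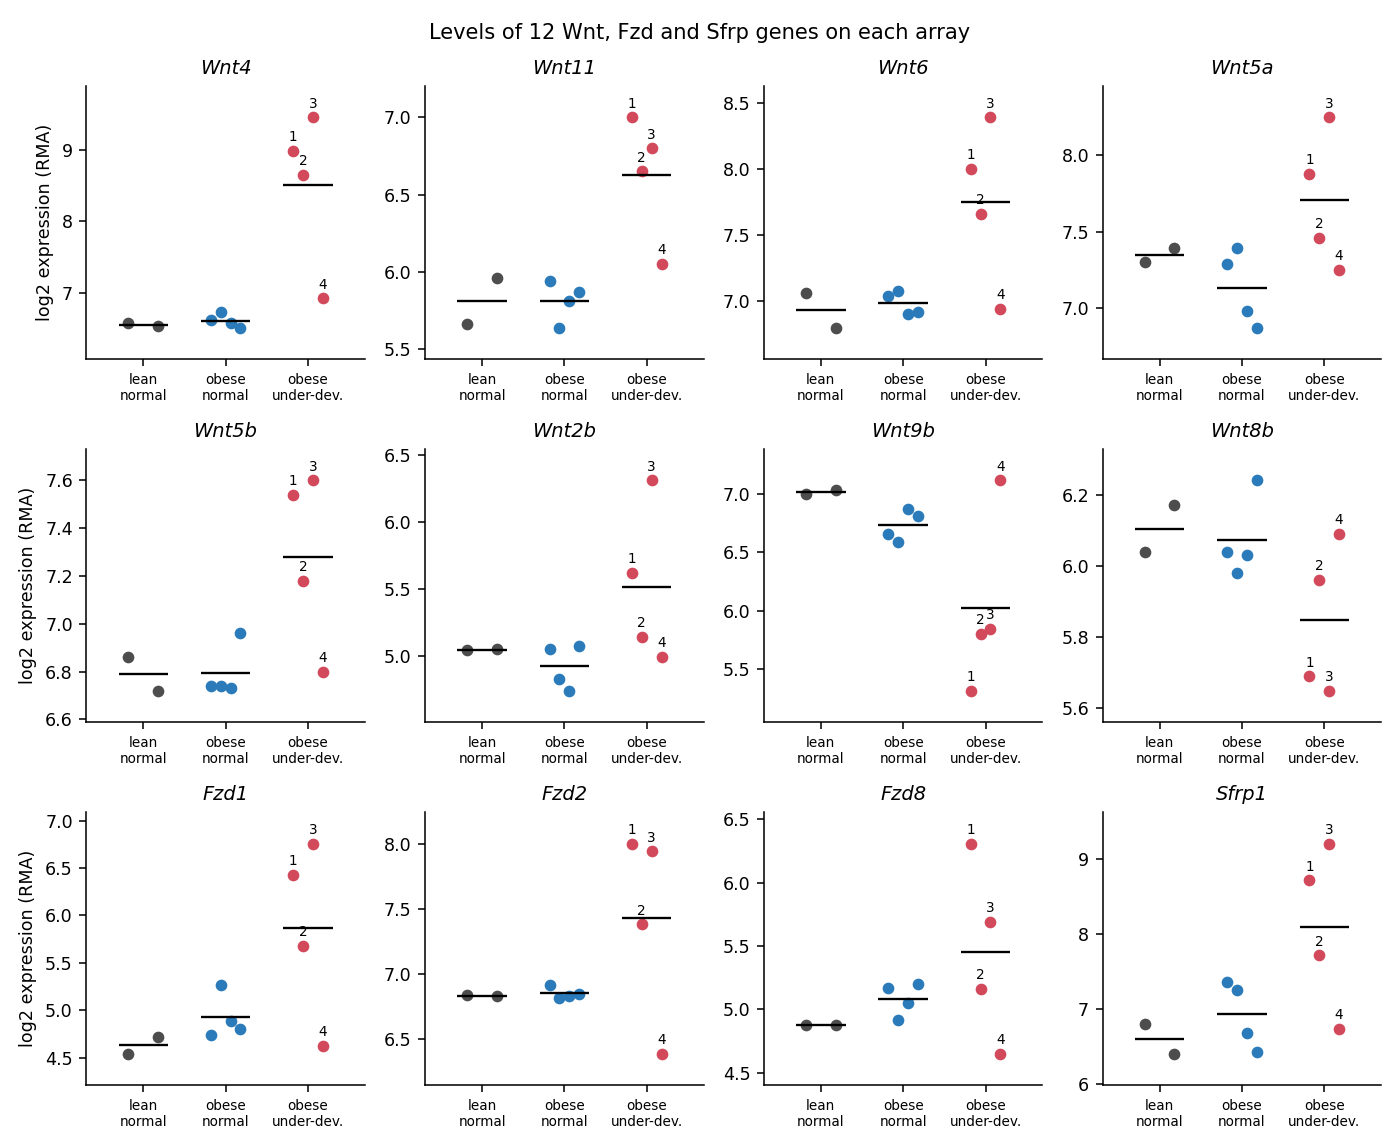
RMA log2 expression as deposited (y axis) of the 12 members that passed without under-developed replicate 4, by group (x axis). Points are arrays, bars are group means, and the numbers mark the under-developed replicates. Replicates 1 to 3 lay above all 6 normal arrays for Wnt4, Wnt11, Wnt6, Wnt5a, Wnt5b, Wnt2b, Fzd1, Fzd2 and Sfrp1 and below them for Wnt9b and Wnt8b; with arrays centred on the Sertoli markers only Wnt4 rose without replicate 4.

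Among the ligands, Wnt4 differed most. It stood at 6.61, 6.73, 6.58 and 6.51 log2 in normal obese testes and at 6.57 and 6.53 in lean testes. The under-developed testes gave 8.99, 8.65, 9.46 and 6.92. All 4 under-developed arrays lay above all 6 normal arrays, replicate 4 by a small margin and the others by far. Relative to the normal obese mean these levels were 5.21, 4.12, 7.22 and 1.24 times as high on the linear scale. The fitted difference was 1.90 ± 0.46 log2 (SE) with all arrays (limma adjusted p = 0.0702) and 2.43 ± 0.17 without replicate 4 (limma adjusted p = 5.53e-05). Wnt4 also stayed above 0 when arrays were centred on the Sertoli markers (1.14 without replicate 4, limma adjusted p = 2.21e-05).

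Wnt6, a ligand of many epithelia, and Wnt9b, a ligand known from kidney and facial development, differed in opposite directions in replicates 1 to 3. Wnt6 stood at 7.04, 7.08, 6.90 and 6.92 log2 in normal obese testes, at 7.06 and 6.80 in lean testes and at 8.0, 7.66, 8.39 and 6.94 in under-developed replicates 1 to 4. Replicates 1 to 3 were thus higher than every normal array and replicate 4 lay within them, with a fitted difference of 0.76 ± 0.27 (SE, limma adjusted p = 0.0714) that was 1.03 ± 0.17 without replicate 4 (limma adjusted p = 0.001). Wnt9b stood at 6.66, 6.59, 6.87 and 6.81 in normal obese testes, at 7.0 and 7.04 in lean testes and at 5.31, 5.80, 5.84 and 7.12 in under-developed testes. Here replicates 1 to 3 were lower than every normal array and replicate 4 was higher than all of them. The fitted difference of Wnt9b was −0.72 ± 0.33 with all arrays (limma adjusted p = 0.117) and −1.08 ± 0.15 without replicate 4 (limma adjusted p = 4.07e-04).

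Each of these genes has another Wnt gene as its next protein-coding neighbour in the RefSeq order of assembly GRCr8, and the neighbours did not pass. Wnt10a, beside Wnt6 on chromosome 9, was 0.23, 0.22, −0.09 and 0.16 log2 from the normal obese mean in the under-developed arrays, where Wnt6 differed by 1.01, 0.67, 1.40 and −0.04. Wnt3, beside Wnt9b on chromosome 10, differed by −0.12, −0.09, −0.33 and −0.18, where Wnt9b differed by −1.42, −0.94, −0.89 and 0.39. The other such pairs, Wnt1 with Wnt10b on chromosome 7 and Wnt3a with Wnt9a on chromosome 10, held no gene that passed. Whether the genes of a pair differ from each other was not tested.

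The sequences before the starts of Wnt4, Wnt6 and Wnt9b, the 3 ligands with the largest differences without replicate 4, are shown here, with matches to GGGCGG, the GC box bound by Sp1-type factors, in capitals on either strand. They come from RefSeq, assembly GRCr8, at chr5:154797200-154797244 (plus strand, the 45 bases of the window that lie before every annotated form of the gene), chr9:83778302-83778551 (plus strand, 250 bases) and chr10:89157066-89157315 (minus strand, 250 bases), and are written 5′ to 3′ along the gene.
Wnt4: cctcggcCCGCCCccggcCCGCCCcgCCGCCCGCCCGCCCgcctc
Wnt6: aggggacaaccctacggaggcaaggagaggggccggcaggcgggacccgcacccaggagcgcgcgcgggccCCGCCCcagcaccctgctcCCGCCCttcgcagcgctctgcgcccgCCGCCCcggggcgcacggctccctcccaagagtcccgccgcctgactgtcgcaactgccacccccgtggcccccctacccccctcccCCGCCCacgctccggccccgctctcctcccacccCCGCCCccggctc
Wnt9b: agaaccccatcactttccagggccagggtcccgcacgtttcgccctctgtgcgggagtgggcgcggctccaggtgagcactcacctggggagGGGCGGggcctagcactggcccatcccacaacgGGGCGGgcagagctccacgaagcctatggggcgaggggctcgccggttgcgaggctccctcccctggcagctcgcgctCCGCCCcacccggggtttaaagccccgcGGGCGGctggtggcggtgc
The stretch of Wnt4 held 5 GC boxes, that of Wnt6 held 5 and that of Wnt9b held 4. The windows of Wnt8b, which also fell without replicate 4, and of Fzd1, which rose, held 0. Whether GC boxes go with the direction of a difference was not tested. The GC content of the printed stretches of Wnt4, Wnt6 and Wnt9b was 95.6%, 79.6% and 72.4%. The value of Wnt4 rests on 45 bases, whereas the median of 51.2% was taken over all RefSeq windows of 250 bases before a gene start. Such a window was matched for 25 of the 32 members, and 14 of these held a GC box, which 30.5% of 33469 windows held. These and the following counts use all 250 bases, also where part of a window, as for Wnt4, lies within the annotated gene. CTTTGA, the core of the TCF and LEF site, was found on either strand in 2 of the 25 (Fzd7 and Wnt8a) and in 13.9% of all windows. CTTTGT, a core shared by SOX and LEF factors, was found in 2 (Sfrp5 and Wnt8b) against 16.3%, and GCGGGGGCG, a site of EGR1 and WT1, in 3 (Wnt2, Wnt3a and Wnt7a) against 2.45%. The cAMP response element TGACGTCA and the TATA box TATAAA were found in 0 of the 25, against 1.59% and 12.9% of all windows. Each motif was searched on both strands, none contains another, and a match is a run of letters, not a shown binding site.

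Wnt11, a ligand mostly known for polarity signalling, stood at 5.94, 5.64, 5.81 and 5.87 log2 in normal obese testes, at 5.66 and 5.96 in lean testes and at 7.0, 6.65, 6.80 and 6.05 in under-developed testes. All 4 under-developed arrays lay above all 6 normal arrays. The fitted difference was 0.81 ± 0.20 (SE, limma adjusted p = 0.0702) with all arrays and 1.00 ± 0.13 without replicate 4 (limma adjusted p = 3.23e-04). Wnt5a, a ligand of the non-canonical branch, stood at 7.29, 7.39, 6.98 and 6.87 in normal obese testes, at 7.30 and 7.39 in lean testes and at 7.88, 7.46, 8.25 and 7.25 in under-developed testes. Replicate 2 exceeded the highest normal array by little, and replicate 4 did not exceed it. The closely related Wnt5b stood at 6.74, 6.74, 6.73 and 6.96 in normal obese testes, at 6.86 and 6.72 in lean testes and at 7.54, 7.18, 7.60 and 6.80 in under-developed testes, with replicate 4 within the normal range. Wnt2b stood at 5.05, 4.83, 4.74 and 5.07 in normal obese testes, at 5.04 and 5.05 in lean testes and at 5.62, 5.14, 6.31 and 4.99 in under-developed testes, so that replicate 3 carried most of its difference. Without replicate 4 the fitted differences were 0.73 ± 0.20 for Wnt5a (limma adjusted p = 0.013), 0.65 ± 0.13 for Wnt5b (limma adjusted p = 2.57e-03) and 0.77 ± 0.24 for Wnt2b (limma adjusted p = 0.0232).

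Of the remaining Wnt genes, Wnt8b stood at 6.04, 5.98, 6.03 and 6.24 log2 in normal obese testes, at 6.04 and 6.17 in lean testes and at 5.69, 5.96, 5.65 and 6.09 in under-developed testes. Replicates 1 to 3 lay below all normal arrays, replicate 2 by little, and Wnt8b passed narrowly without replicate 4 (−0.30 ± 0.11, SE, limma adjusted p = 0.0498). The others did not pass with or without replicate 4. Wnt3a, the classical canonical ligand, stood at 6.07, 6.04, 6.16 and 6.15 in normal obese testes and at 6.23, 6.29, 6.38 and 6.31 in under-developed testes, with no overlap. Its lean arrays, at 6.26 and 6.23, lay within the under-developed values, and it did not pass (0.20 ± 0.09, limma adjusted p = 0.103). Wnt2 differed by 0.26, 0.03, −0.47 and −0.01, and Wnt7b by −0.51, 0.02, 0.18 and 0.12, with replicates 1 and 3 on opposite sides of the normal mean in both. Wnt1 differed by −0.14, 0.07, 0.61 and 0.41, Wnt8a by 0.08, 0.01, 0.49 and 0.29 and Wnt16 by 0.09, 0.05, 0.35 and 0.24. Wnt7a, Wnt9a and Wnt10b lay between −0.24 and 0.44 in each replicate. Without a pass, these values do not show that the genes are alike in the groups.

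**Figure D2:**
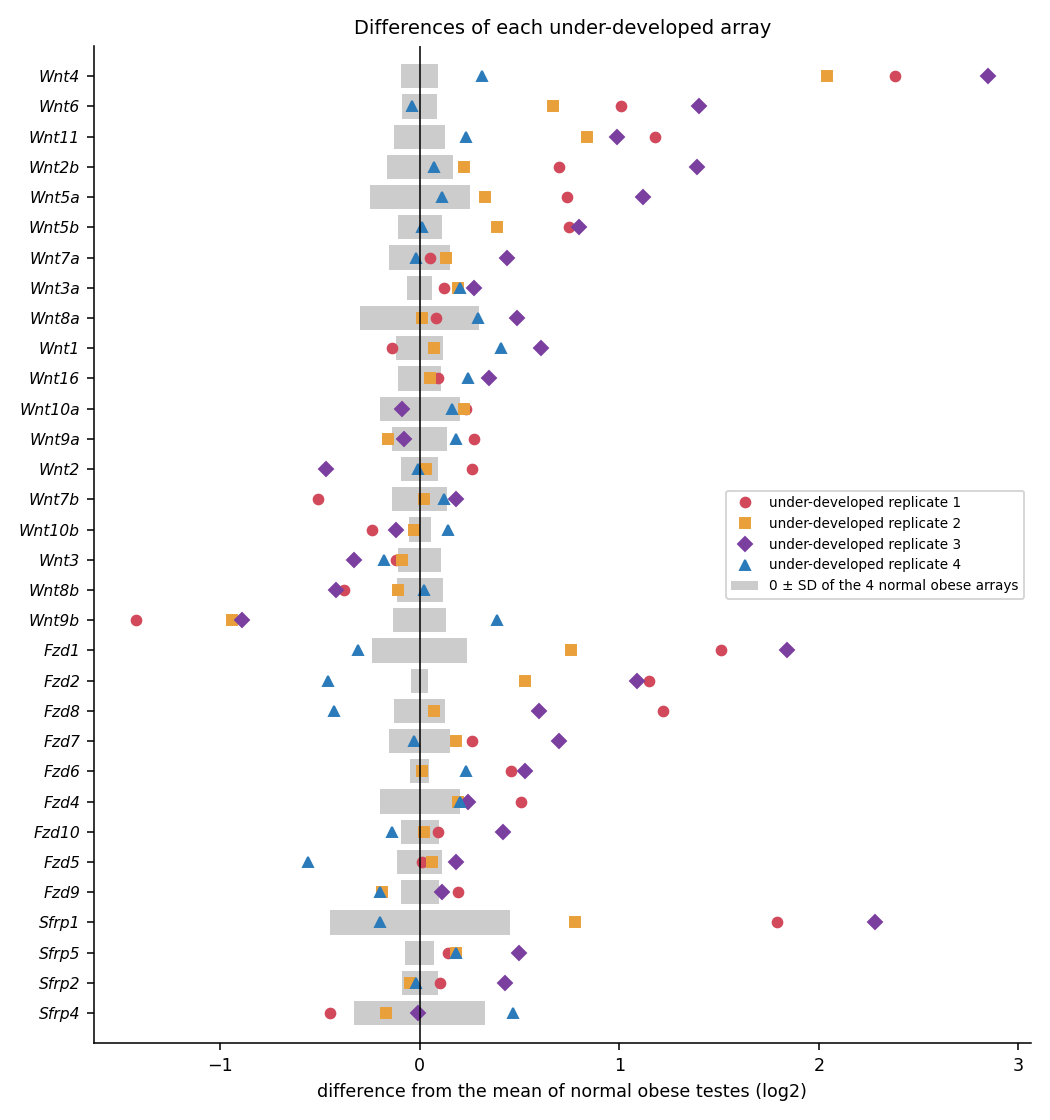
Distance of every under-developed array from the normal obese mean (x axis, log2) for all 32 genes (y axis), with the grey band at 0 ± SD of the normal obese arrays. Wnt4 reached 2.85 in replicate 3 and Wnt9b −1.42 in replicate 1, and replicate 4 stayed between −0.56 and 0.47 for all genes.

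Among the receptors, 3 of the 9 frizzleds rose without replicate 4, namely Fzd1, Fzd2 and Fzd8, where 29.6% of all genes rose. Only the threshold of 0.05 set Fzd8 apart from the next, Fzd7 (limma adjusted p = 0.0572). Fzd1 stood at 4.74, 5.27, 4.89 and 4.8 log2 in normal obese testes, at 4.54 and 4.72 in lean testes and at 6.43, 5.68, 6.76 and 4.62 in under-developed testes. Fzd2 stood at 6.92, 6.82, 6.83 and 6.85 in normal obese testes, at 6.84 and 6.83 in lean testes and at 8.0, 7.38, 7.94 and 6.39 in under-developed testes. For both genes replicates 1 to 3 exceeded every normal array, and for Fzd2 replicate 4 lay below every normal array. Fzd8 stood at 5.17, 4.92, 5.05 and 5.20 in normal obese testes, at 4.88 and 4.88 in lean testes and at 6.31, 5.16, 5.69 and 4.65 in under-developed testes, where replicate 2 lay within the normal range. The fitted differences were 0.95 ± 0.41 (SE), 0.57 ± 0.31 and 0.37 ± 0.30 for Fzd1, Fzd2 and Fzd8 with all arrays, with limma adjusted p from 0.1 to 0.367. Without replicate 4 they were 1.37 ± 0.24, 0.92 ± 0.15 and 0.63 ± 0.23, with limma adjusted p = 0.00159, 9.87e-04 and 0.0445.

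Of the other 6 frizzleds, 0 passed with or without replicate 4. Fzd6, a receptor known for planar polarity, stood at 7.90, 7.81, 7.79 and 7.83 log2 in normal obese testes, at 7.97 and 7.86 in lean testes and at 8.30, 7.84, 8.36 and 8.06 in under-developed testes. Fzd7 stood at 6.50, 6.32, 6.12 and 6.33 in normal obese testes, at 6.38 and 6.24 in lean testes and at 6.58, 6.50, 7.01 and 6.28 in under-developed testes. Fzd4, which also serves the ligand norrin, stood at 6.39, 6.54, 6.11 and 6.16 in normal obese testes, at 6.30 and 6.15 in lean testes and at 6.81, 6.49, 6.55 and 6.50 in under-developed testes. The under-developed and normal obese groups of all 3 overlapped. For Fzd4 all under-developed arrays lay above both lean arrays, as they did for 13.7% of all genes. Fzd7, Fzd6 and Fzd4 missed the threshold without replicate 4. Their fitted differences were then 0.38 ± 0.15 (SE, limma adjusted p = 0.0572), 0.33 ± 0.13 (limma adjusted p = 0.0626) and 0.32 ± 0.14 (limma adjusted p = 0.081). Fzd5 differed by 0.01, 0.06, 0.18 and −0.56, the largest difference of any member in replicate 4. It stood at 6.55, 6.69, 6.43 and 6.62 in normal obese testes, at 6.47 and 6.64 in lean testes and at 6.58, 6.64, 6.76 and 6.01 in under-developed testes. Fzd9 and Fzd10 differed by 0.42 or less in each replicate.

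The frizzleds of replicate 4 leaned the other way from those of replicates 1 to 3. In replicates 1 and 3 all 9 Fzd genes were above the normal obese mean, in replicate 2 there were 8, and in replicate 4 there were 2. Of all 18166 genes, 9473, 8816, 10878 and 8884 were above it in replicates 1 to 4. The median difference of the Fzd genes was 0.46, 0.07, 0.53 and −0.20 log2 in replicates 1 to 4, against 0.03, −0.02, 0.17 and 0.00 over all genes. Over all 32 members, replicate 4 lay above all 6 normal arrays for 7 and below them for 6, near the 17.8% and 18.6% of all genes. The members below were Fzd2, Fzd5, Fzd8, Fzd9, Fzd10 and Wnt3. Replicate 3 lay above all 6 normal arrays for 23 members and below them for 5, where all genes gave 49.5% and 32.0%. In replicate 1 these counts were 16 and 5 (all genes 40.7% and 37.8%), and in replicate 2 they were 12 and 4 (all genes 34.2% and 38.3%).

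Sfrp1, a secreted inhibitor of Wnt signalling, stood at 7.37, 7.26, 6.69 and 6.43 log2 in normal obese testes, at 6.80 and 6.41 in lean testes and at 8.72, 7.72, 9.21 and 6.74 in under-developed testes. The normal testes already varied by almost 1 log2, and replicates 1 to 3 lay above all of them. The fitted difference was 1.16 ± 0.49 (SE, limma adjusted p = 0.0987) with all arrays and 1.61 ± 0.36 without replicate 4 (limma adjusted p = 0.00489). The other 3 Sfrp genes did not pass with or without replicate 4. Sfrp5 stood at 6.84, 6.71, 6.67 and 6.75 in normal obese testes and at 6.88, 6.92, 7.24 and 6.92 in under-developed testes, with no overlap between these groups, but its lean arrays stood at 7.05 and 7.03. Sfrp2 stood at 7.08, 7.09, 6.91 and 6.96 in normal obese testes, at 7.04 and 7.24 in lean testes and at 7.11, 6.96, 7.44 and 6.99 in under-developed testes. Sfrp4 stood at 5.83, 5.44, 5.14 and 5.82 in normal obese testes, at 6.02 and 5.88 in lean testes and at 5.11, 5.39, 5.54 and 6.03 in under-developed testes. The under-developed and normal obese groups of Sfrp2 and Sfrp4 overlapped, and the fitted difference of Sfrp4, −0.04 ± 0.22, turned positive when certain single arrays were left out.

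The under-developed and normal obese groups did not overlap for 4 members that were higher, Wnt4, Wnt11, Wnt3a and Sfrp5, and for 0 that were lower, where 7.44% of all genes did so upward and 10.4% downward. At a difference of at least 2-fold, 7 members were higher in replicate 1 (15.5% of all genes), 1 in replicate 2 (7.56%), 7 in replicate 3 (19.2%) and 0 in replicate 4 (0.0385%). Wnt9b in replicate 1 was the only member at least 2-fold lower in any of these arrays, where 15.6%, 6.18%, 16.8% and 0.0055% of all genes were that much lower in replicates 1 to 4. The difference was smallest in replicate 2 for 10 of the 10 members that rose without replicate 4, and for 88.5% of all genes that did. It was largest in replicate 3 for 7 of them, and for 69.4% of all genes.

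Markers of several cell types also differed from the normal obese mean, some upward and some downward. The mean difference of the Sertoli markers was 1.37, 0.98, 1.49 and 0.00 log2 in replicates 1 to 4, and that of the Leydig markers, 9 of 10 measured, was 1.36, 0.79, 1.53 and −0.27. Fibroblast and matrix markers, 10 of 10 measured, differed by 1.71, 1.19, 1.86 and −0.06 on average, peritubular muscle markers, 6 of 8 measured, by 1.12, 0.81, 1.67 and −0.25, and macrophage markers, 9 of 9 measured, by 2.70, 1.62, 2.63 and −0.08. The spermatid markers differed by −2.70, −0.68, −4.11 and −0.05. The summed level of the Leydig markers lay between 11.41 and 11.79 in normal obese, 11.52 and 11.65 in lean and 11.33 and 13.70 in under-developed testes, that of the fibroblast markers between 10.83 and 11.52, 10.63 and 11.07, and 11.09 and 13.82, and that of the macrophage markers between 10.94 and 11.43, 10.77 and 11.17, and 11.12 and 14.16. Endothelial markers, 6 of 8 measured, differed by 1.07, 0.71, 1.15 and 0.00 on average. Epididymis markers, 9 of 10 measured, differed by −0.07, 0.01, 0.02 and 0.21, adipocyte markers, 8 of 8 measured, by 0.19, 0.22, 0.41 and −0.04, and spermatogonia markers, 9 of 10 measured, by 0.16, −0.04, 0.37 and −0.08. Spermatocyte markers, 10 of 10 measured, differed by −2.52, −0.70, −3.93 and 0.01. No marker is listed at 0, as RMA values have no zero, and the part of these cell types in the Wnt, Fzd and Sfrp values was not tested.

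How many members counted as higher depended on the scale. Without replicate 4, 10 members rose and 2 fell with the values as deposited. With each array centred on its median 9 rose and 3 fell (24.7% and 29.8% of all genes), and after quantile normalization again 9 rose and 2 fell (27.8% and 25.3%). Centring on the ribosomal protein genes left 3 members that rose (Wnt4, Sfrp1 and Fzd1) and 22 that fell, where 11.8% of all genes rose and 71.3% fell. With arrays centred on the Sertoli markers 1 rose (Wnt4) and 28 fell, where 5.73% of all genes rose and 85.7% fell. The median of all genes with all arrays was 0.06 log2 as deposited, −0.48 on the ribosomal scale and −0.90 on the Sertoli scale, so a gene that stayed level lies below 0 on both. Wnt4 rose and Wnt9b and Wnt8b fell on each of these scales without replicate 4, Wnt9b by 1.08 as deposited, 1.19 with median centring, 1.85 on the ribosomal scale, 2.36 on the Sertoli scale and 1.14 after quantile normalization. Wnt6 was at 0.26 on the ribosomal scale, where it did not pass, and fell by 0.25 on the Sertoli scale (limma adjusted p = 0.0427). Wnt11 was at 0.24 and −0.28 on these scales and passed on neither. The combination of a scale with the omission of replicate 4 was chosen after seeing the data.

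**Figure D3:**
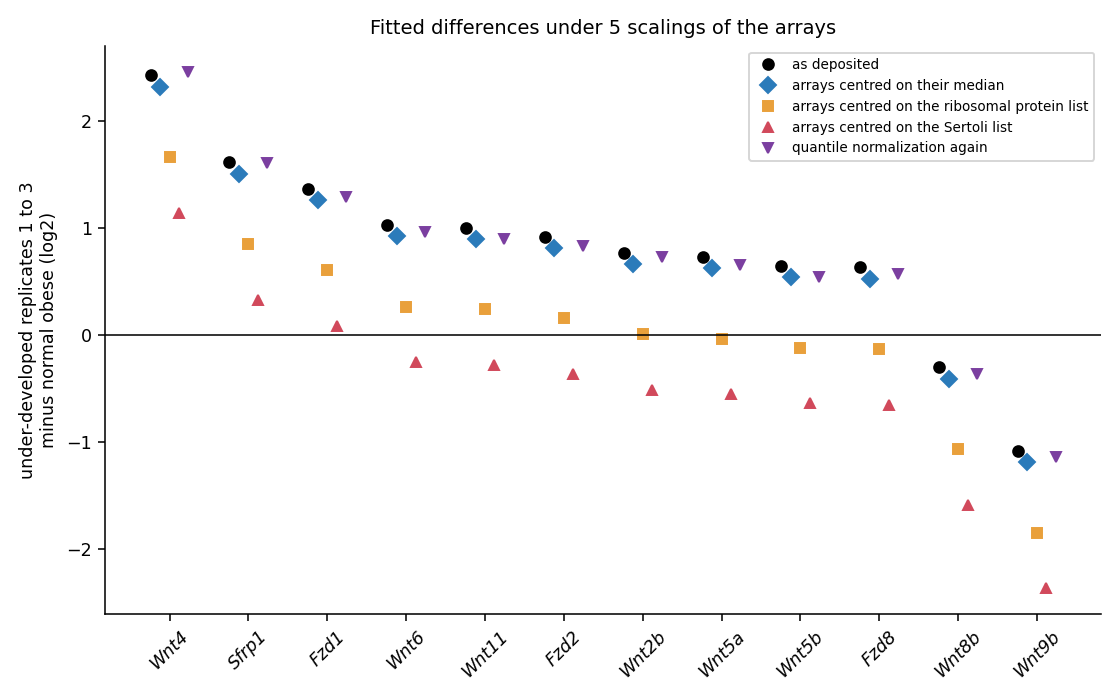
Fitted difference of under-developed replicates 1 to 3 from normal obese testes (y axis, log2) for the 12 members that passed without replicate 4 (x axis), under 5 scalings of the arrays. Wnt4 lies above 0 and Wnt9b and Wnt8b below 0 on each scale, while Wnt6 goes from 1.03 as deposited to −0.25 on the Sertoli scale.

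The other genes of the Wnt pathway, 82 measured in fixed lists, gave 0 calls with all arrays and 43 without replicate 4, of which 29 rose and 14 fell with the values as deposited, 52.4% against the 56.0% of all genes. The counts of each list that follow stand against the 29.6% of all genes that rose and the 26.4% that fell in the same fit, and several lie near these shares. Wls, the carrier that takes Wnt proteins to the cell surface, differed by 2.56, 1.82, 2.83 and −0.21 log2 in replicates 1 to 4, and rose without replicate 4 (2.40 ± 0.21, SE, limma adjusted p = 7.62e-05). Porcn, which attaches the lipid, differed by −0.15, 0.08, 0.46 and 0.23 and did not pass. Of the 5 coreceptors 2 rose without replicate 4, namely Ryk (1.90, 1.21, 1.90 and −0.15) and Lrp6 (1.03, 0.65, 1.62 and 0.08), the latter below 0 on the Sertoli scale with all arrays (−0.12).

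In the list of 13 secreted antagonists and their receptors, 1 rose and 3 fell without replicate 4. The 4 genes named here have the largest fitted differences of the list with all arrays. They were not picked by passing, so they need not be the genes that rose and fell. Dkk3 differed by 1.56, 1.02, 1.67 and −0.06 log2 in replicates 1 to 4. Dkkl1 differed by −1.06, −0.28, −4.26 and −0.18, with replicate 3 far below the others. All 4 under-developed arrays lay below all 6 normal arrays. Lying below the normal obese arrays alone held for 10.4% of all genes, and below the lean arrays alone for 14.7%. The spermatid markers differed by −2.70, −0.68, −4.11 and −0.05 on average. A link of Dkkl1 with them, or with Wnt signalling, was not tested. Wif1, a secreted Wnt inhibitor, differed by −0.54, −0.92, −0.57 and 0.12. Kremen1, a receptor for Dickkopf proteins, stood at 9.41, 9.35, 9.98 and 10.16 in normal obese testes and at 6.10, 8.17, 6.85 and 9.19 in under-developed testes, but at 6.57 and 6.36 in lean testes. The under-developed arrays were thus below the normal obese arrays, and 3 of them were above both lean arrays. Normal obese testes exceeded lean testes by 3.26 ± 0.72 (SE, limma adjusted p = 1.00), and Kremen1 passed in that comparison when only these groups were fitted or arrays were weighted. Of the 7 inhibitors at the membrane or inside the cell, Apcdd1 (1.30, 0.66, 1.54 and −0.17) and Nkd1 (1.04, 0.38, 1.08 and 0.10) rose without replicate 4, and both were below 0 on the Sertoli scale with all arrays (−0.13 and −0.31).

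Of the 8 R-spondin, Lgr and norrin genes, which strengthen Wnt signals, 3 rose and 1 fell without replicate 4. The receptor genes Lgr4 and Lgr5 went in opposite directions, Lgr4 by 2.18, 1.49, 2.29 and −0.09 log2 and Lgr5 by −1.87, −1.36, −2.16 and −0.23 in replicates 1 to 4. Ndp, which encodes norrin, a ligand of Fzd4, differed by 2.22, 1.05, 1.89 and 0.13, and Rspo1 by 0.55, 0.16, 0.78 and 0.40. Lgr4 and Ndp stayed above 0 and Lgr5 below 0 under each scaling run with all arrays, while Rspo1 was at −0.07 on the ribosomal and −0.49 on the Sertoli scale.

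Inside the cell, 5 of 18 genes rose and 7 fell without replicate 4. Ctnnb1, the beta-catenin gene, differed by 1.45, 0.91, 1.51 and −0.16 log2 in replicates 1 to 4, and was at −0.03 on the Sertoli scale with all arrays. The tankyrase gene Tnks2 differed by 2.41, 1.51, 2.57 and 0.02, Dvl1, which relays the frizzled signal, by −1.33, −0.60, −1.20 and 0.02, and Axin1, a scaffold of the complex that degrades beta-catenin, by −1.03, −0.79, −0.89 and −0.22. Of 13 nuclear genes 7 rose and 1 fell, the latter being Lef1, a partner of beta-catenin on DNA, which differed by −2.18, −1.04, −2.49 and 0.07 (without replicate 4, −1.90 ± 0.29, SE, limma adjusted p = 7.5e-04). Hbp1 and Tle4, which act as repressors, differed by 1.35, 0.72, 1.43 and 0.07 and by 1.30, 0.51, 1.42 and 0.14. Of 15 genes known as targets, some of which stand in other lists too, 6 rose and 2 fell. Myc differed by 1.82, 0.80, 1.35 and −0.12. Axin2, the most widely used readout of canonical signalling and named here after its values were seen, differed by 0.05, −0.19, 0.54 and −0.03 and did not pass. Of 9 planar polarity genes 4 rose and 2 fell, with Vangl1 at 1.93, 1.39, 2.58 and 0.05 and Prickle1 at 1.56, 0.70, 1.87 and 0.22.

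**Figure D4:**
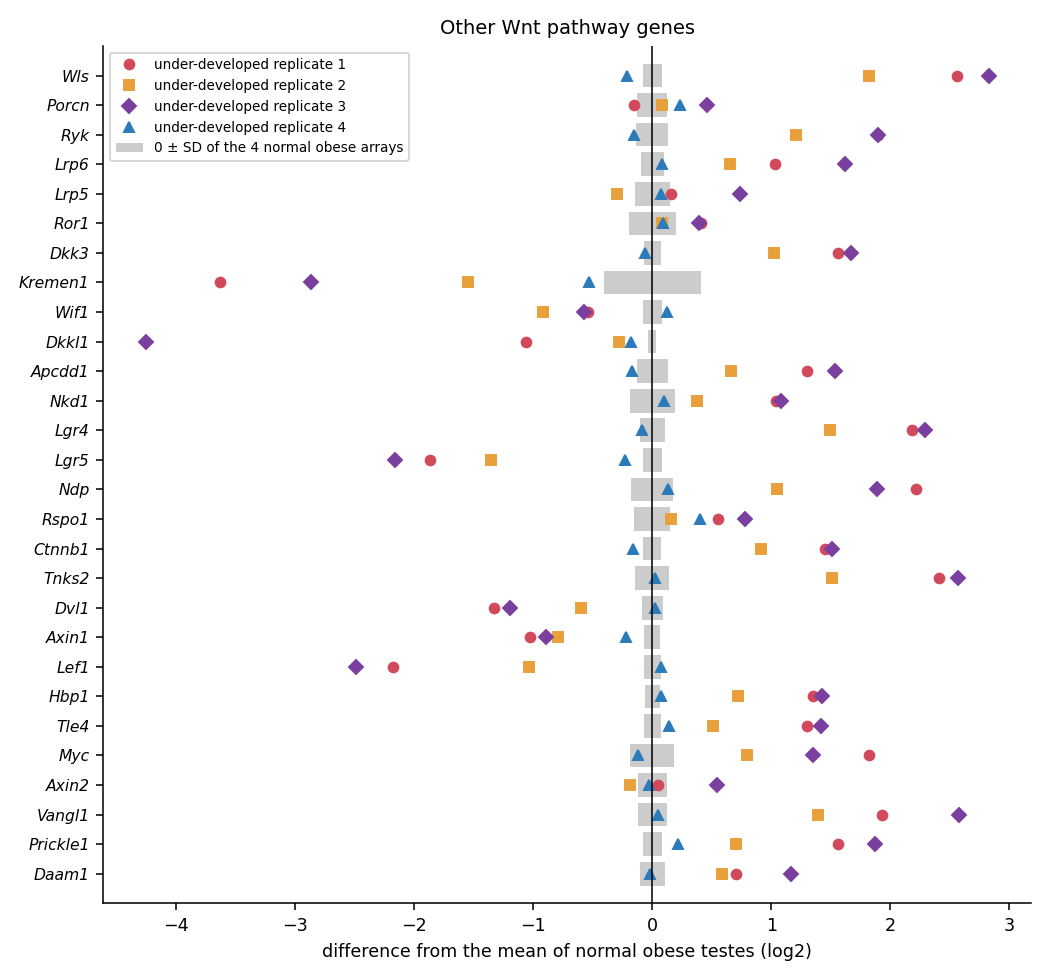
Distance of every under-developed array from the normal obese mean (x axis, log2) for 28 other Wnt pathway genes (y axis), with the grey band at 0 ± SD of the normal obese arrays. Wls and Lgr4 lie to the right and Lgr5, Lef1 and Kremen1 to the left of 0 in replicates 1 to 3, and replicate 4 stays between −0.53 and 0.40.

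The comparison of normal testes between obese and lean rats asks how these genes differ with obesity where the testis developed normally. No member passed (0 of 32, with 0.0% of all genes called and 0 members at an unadjusted p under 0.05 in limma), and the fitted differences of obese minus lean testes did not exceed 0.39 log2 in size. The smallest unadjusted p belonged to Sfrp5, which was lower in obese testes (6.74 ± 0.07, SD, n = 4) than in lean testes (7.04 ± 0.02, SD, n = 2), with a difference of −0.30 ± 0.13 (SE, limma adjusted p = 1.00). Sfrp4 was at −0.39 ± 0.27 (SE). The groups did not overlap for 2 members that were higher in obese testes, Fzd1 and Fzd8, and for 6 that were lower, Fzd9, Sfrp4, Sfrp5, Wnt3a, Wnt9b and Wnt10b, where 7.70% and 7.27% of all genes did so. With 2 lean arrays, small differences were not detectable, and large ones could be missed too. The model shared its spread with the under-developed arrays, and Kremen1, at 3.26 log2, did not pass in it. The SE of Wnt4 in this comparison was 0.56, and 0.20 without under-developed replicate 4. The lack of a pass thus does not show that the members are alike in obese and lean testes.

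Under-developed testes of obese rats were also set against normal testes of lean rats, a comparison that shares the under-developed arrays with the first, so its values are not independent of it. With all arrays 0 of 32 members passed (0.0% of all genes), the smallest limma adjusted p was 0.154, and 7 members were higher and 1 lower at an unadjusted p under 0.05 (17.5% and 14.3% of all genes). Without replicate 4, 9 members passed (48.8% of all genes), 8 that rose and 1 that fell, where 25.6% of all genes rose and 23.2% fell. Those that rose were Wnt4, Wnt5b, Wnt6, Wnt11, Fzd1, Fzd2, Fzd8 and Sfrp1, and Wnt9b fell. With all arrays the differences were 1.95 ± 0.56 (SE) for Wnt4, 1.49 ± 0.61 for Sfrp1, 1.24 ± 0.50 for Fzd1 and −1.0 ± 0.40 for Wnt9b, each with a limma adjusted p = 0.154. Wnt5a, Wnt2b and Wnt8b, which passed against normal obese testes without replicate 4, did not pass here (0.52 ± 0.24 with limma adjusted p = 0.105, 0.65 ± 0.29 with limma adjusted p = 0.0925, and −0.34 ± 0.14 with limma adjusted p = 0.0697).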

How the data were processed

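Each testis sample was hybridised to 1 array after Trizol extraction and biotin labelling with the Affymetrix WT PLUS kit, per the labels' protocols. The values deposited by the authors are log2 expression values per probe set, made with RMA per the submitters' processing notes; its settings, software version and genome build are not given in the sources used here. The table held 36685 probe sets with array medians from 6.14 to 6.38. Of these, 18511 carried 1 gene symbol in the platform annotation, 575 several, and 17599 had no name here. RefSeq (GRCr8) gene numbers matched 18394 of the probe sets with 1 symbol and changed no member's symbol. Genes with several probe sets were represented by the brightest on average, which left 18166 genes, and dim genes were kept. Of the 32 members, 22 would pass a filter at the 25th percentile of gene means and 8 at the median. Fzd3 was not analysed here.

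Sample titles gave the groups. A single limma model (version 3.58.1, R 4.3.3) held the mean of every group over all 10 arrays and gave two-sided tests, with Benjamini-Hochberg adjustment over all genes and a threshold of 0.05. Single under-developed arrays were set against the normal obese mean without a test. Summaries and figures used Python 3.11.15, pandas 2.3.3 and matplotlib 3.10.9. The fit was tested on simulated data whose spread came from the normal arrays alone. The under-developed arrays spread more (median SD 0.36 log2 over all genes, against 0.10 in normal obese testes). That test therefore does not show how the fit performs with an array like replicate 4. The members and lists were chosen with earlier results of these data known. Values in every array are given for the 6 Wnt and 6 Fzd genes with the largest fitted difference, for all Sfrp genes and for the largest difference in each under-developed array, and up to 4 genes of each pathway list are named; Wnt5b, Wnt8b, Wnt3a and Axin2 were added after their values were seen. Alternatives were other scalings, an offset, filters on dim genes, other limma settings, a block on the replicate number and leaving out each array. The number of arrays limits the precision.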

Additional observations from a re-analysis of the deposited data

Results flagged for a closer look

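Within groups of 4 arrays, a single array stood far from the other 3 in 4 of 64 groups examined (32 genes in normal obese and in under-developed testes), where chance flags about 1 in 20, or 3.2. Fzd4 was 6.81 in under-developed replicate 1, with the other under-developed arrays between 6.49 and 6.55. Sfrp5 was 7.24 in under-developed replicate 3, with the others between 6.88 and 6.92. Wnt5b was 6.96 in normal obese replicate 4, with the others between 6.73 and 6.74. Wnt7a was 5.62 in normal obese replicate 1, with the others between 5.89 and 5.95.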

How the results depend on the processing

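Calls depended on under-developed replicate 4. Leaving out each array in turn gave 0 to 10171 genes, 0 to 12 members and 0 to 43 other pathway genes called between under-developed and normal obese testes, and 0 to 8866, 0 to 9 and 0 to 38 against lean testes; only the omission of under-developed replicate 4 gave any. Array weights gave 9862 genes, 12 members and 43 pathway genes in the first comparison and 9620, 10 and 42 in the second, and centring on the Sertoli markers gave 12675, 19 and 53 in the first. For obese against lean normal testes, array weights and the fit of these groups alone each called 1 gene, Kremen1 of the pathway lists. The cause of these moves was not tested. Of 1048 values of the genes described singly, 920 kept their direction and side of the threshold, 88 kept their direction and passed, and 40 changed sign. With arrays centred on the Sertoli markers, 21 of the 32 members changed sign between under-developed and normal obese testes. Fzd10, Wnt1, Wnt7a, Wnt8a, Wnt9a, Wnt10a and Wnt16 then lay between −0.91 and −0.73, and the others, with the pathway genes described, were Wnt11 (−0.15), Wnt6 (−0.20), Wnt2b (−0.37), Wnt5a (−0.39), Fzd1 (−0.0132), Fzd2 (−0.39), Fzd8 (−0.60), Fzd6 (−0.66), Fzd4 (−0.68), Fzd7 (−0.69), Sfrp2 (−0.85), Sfrp5 (−0.71), Wnt5b (−0.47), Wnt3a (−0.77), Porcn (−0.81), Lrp6 (−0.12), Apcdd1 (−0.13), Nkd1 (−0.31), Rspo1 (−0.49), Ctnnb1 (−0.0331), Hbp1 (−0.0733), Tle4 (−0.12) and Myc (−0.0022). With arrays centred on the ribosomal protein genes 15 members changed sign. The same 7 lay between −0.49 and −0.30, and the others, with the pathway genes described, were Fzd8 (−0.17), Fzd6 (−0.23), Fzd4 (−0.25), Fzd7 (−0.27), Sfrp2 (−0.43), Sfrp5 (−0.29), Wnt5b (−0.053), Wnt3a (−0.34), Porcn (−0.38) and Rspo1 (−0.0664). With array weights, Fzd5 was at 0.0132 and Porcn at −0.0115. Leaving out single arrays moved Sfrp4 between −0.21 and 0.0959 and Fzd5 between −0.16 and 0.0852. The titles do not say whether same-numbered under-developed and normal obese arrays are paired. Their deviations from group means correlated at 0.0771, 0.00692, 0.0237 and 0.26 for replicates 1 to 4. These values cannot settle pairing, as the under-developed arrays differed widely among themselves. With the replicate number as a block, 0 genes and 0 members passed in each comparison, and 2 of 8 obese arrays correlated best with the array of their own number. Low signal limits Fzd1, Fzd8 and Wnt2b, which a filter at the 25th percentile removes.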
